A study of Mus musculus with 12 samples.

Results

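The genes described here encode the mouse factors that start, elongate and end protein synthesis, together with their direct kinases, binding proteins and methyltransferases. Members were taken by symbol from the authors' deposited tables: every gene whose symbol starts with Eif1, Eif2, Eif3, Eif4, Eif5, Eif6, Eef1, Eef2, Etf1 or Gspt1, without rows named as pseudogenes and without the sex-linked pair of eIF2 gamma genes. This gave 62 genes of the 55335 gene rows counted. The symbol rule itself used no measured value, but only genes listed in those tables could enter, 13301 for RNA and 11369 for footprints. Not listed there were 7 genes of the same stems, and those described at the end had few reads. Membership was therefore not independent of expression level. They were followed in thymocytes, the developing T cells of the thymus, of 6-week-old mice kept under specific-pathogen-free conditions. The groups were WT mice and mice with the genotype miR-181a/b-1 KO, and each group had 3 libraries of RNA-seq and 3 of ribosome footprints, 12 libraries in all. Cells were passed through a 70 µm strainer and put into buffer with 0.1 mg/ml cycloheximide, a drug that stalls elongating ribosomes. The labels give no strain, no sex and no date, and they do not say whether the deletion was made in the germline or only in some cells. The replicate numbers are those of the library titles, and no label ties an RNA-seq library to the footprint library of the same mouse.

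Translation starts when the initiator tRNA, carried by eIF2 with GTP, joins the small ribosomal subunit together with eIF1, eIF1A, eIF5 and the large complex eIF3. The eIF4F complex, made of the cap-binding protein eIF4E, the scaffold eIF4G and the helicase eIF4A, brings this subunit to the capped end of an mRNA. After the start codon is found, eEF1A delivers each aminoacyl-tRNA, eEF2 moves the ribosome forward, and the release factors eRF1 and eRF3 end the chain. Many elongation factor mRNAs and several eIF3 subunit mRNAs begin with a C followed by a run of pyrimidines, a 5′ terminal oligopyrimidine (TOP) tract, through which the kinase mTORC1 controls their translation.

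The microRNAs that the knockout is named for are shown with their seed, bases 2 to 8, in capitals. They are from RefSeq on GRCm38.p6, at chr1:137966468-137966490 and chr1:137966650-137966673 on the plus strand, and both carry the same seed.
mmu-miR-181a-5p: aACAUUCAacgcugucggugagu
mmu-miR-181b-5p: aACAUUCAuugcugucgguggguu

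The annotated starts of members from the TOP list and of eIF3 subunits outside it are shown because the footprint to RNA ratios are described by that list. Each window holds 10 bases before and 20 bases from the RefSeq start, on the strand of the gene, and runs of at least 5 pyrimidines are in capitals. The TOP windows are from chr9:78481705-78481734 (minus strand), chr10:81176621-81176650, chr1:63176821-63176850, chr7:108934405-108934434 and chr15:102073763-102073792 (plus strand). The others are from chr7:126566347-126566376, chr15:77970805-77970834 and chr9:20898571-20898600 (minus strand) and chr15:79075213-79075242 (plus strand), all on GRCm38.p6.
Eef1a1: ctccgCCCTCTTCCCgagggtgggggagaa
Eef2: aaggccgggcgttgacgtcagcggTCTCTT
Eef1b2: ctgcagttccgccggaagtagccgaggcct
Eif3f: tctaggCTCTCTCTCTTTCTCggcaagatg
Eif4b: tcccgtcggacgccgcgccaCCCCCTCgcg
Eif3c: ctgctcagagggactcggcagcttagctgg
Eif3d: agggccatttacgacagcgctggtcgccgt
Eif3g: acccgggctgggagctgcgtggagttaaga
Eif3l: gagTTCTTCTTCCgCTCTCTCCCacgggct
Such a run stood in 4 of the 5 TOP windows, in 44.6% of the 65 starts of members and in 46.4% of the 32851 RefSeq starts searched on the gene's strand. A C followed by at least 4 pyrimidines exactly at the annotated start was found in Eif3f alone among the starts of members, against 2.51% of all starts. RefSeq starts can lie some bases away from the start used in thymocytes, so these letters describe the annotation. Windows were found for 50 of the 62 members.

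Reads in genes numbered 4479182 to 8180286 per RNA-seq library and 4069968 (KO replicate 3) to 17859770 per footprint library. They were 26.97% to 28.46% of all counted reads in RNA-seq and 72.25% to 73.08% in footprints. The bearing of this gap on the footprint to RNA ratios below was not tested. All 62 members passed the filter on low counts in both assays, and 61 of them had at least 10 reads in every RNA-seq library, 59 in every footprint library. The deleted locus was checked with Mir181a-1, which had 166, 132 and 145 CPM (a gene's reads relative to the TMM-scaled library total) in WT footprints and 0.463, 1.04 and 0.98 in KO footprints. In RNA-seq it had 57 reads in the libraries labelled WT and 67 in those labelled KO, so that row checks no label of the RNA-seq libraries, and directions in RNA-seq follow the labels alone. All 9 thymocyte markers listed (Cd3e, Cd4, Cd8a, Cd8b1, Lck, Rag1, Rag2, Ptcra, Dntt) were measured, and their summed level was 12248 to 13514 CPM in WT and 11489 to 12388 in KO by RNA-seq. Rag1 alone gave 6399 to 7565 CPM of that sum in WT and 5444 to 6279 in KO (log2 -0.32, edgeR FDR 0.0993). None of the 9 was called in RNA-seq, against 6.91% of all genes, and their median log2 was -0.01. Cd4, Dntt, Cd3e and Rag2 lay above 0 there (0.18 to 0.23) and the others below. Of all genes tested in footprints, 9.25% were called higher in KO and 8.34% lower, and 3.02% in either direction with the replicate block. In footprints 1 of the 9 markers was called higher in KO, Cd4 (log2 0.57, edgeR FDR 0.00335, with the replicate block 0.0121). The other 3 calls were lower and were lost with the block: Rag1 (log2 -0.30, edgeR FDR 0.00866, with the block 0.116), Ptcra (log2 -0.37, edgeR FDR 0.0293, with the block 0.155) and Lck (log2 -0.12, edgeR FDR 0.0457, with the block 0.519). Deviations of same-numbered WT and KO libraries mirrored each other (Pearson's r over genes -0.98 to -0.96 in RNA-seq and -0.99 to -0.98 in footprints), in counts the authors named as adjusted. Because of this, SDs within a group may understate the spread between mice, and each call below is also given from a fit in which the replicate number is a block.

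The translation factor genes as a whole differed little between the genotypes. In RNA-seq 1 member of 62 was called at an edgeR false discovery rate (FDR) under 0.05, against 6.91% of the 13652 genes tested, and with the block none was, against 0.806%. Without adjustment 15 members had p under 0.05, and 3 with the block, and DESeq2 called 1 other member, against 3.87% of all genes. In footprints 11 members were called, 17.7% of them against 17.6% of the 13509 genes tested. The 2 higher and 9 lower calls stand beside 9.25% and 8.34% of all genes. With the block no member was called in footprints, against 3.02% of all genes, while 10 had an unadjusted p under 0.05, and DESeq2 called 4, against 9.13%.

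The sizes were small in both assays. The members' median log2 fold change (KO over WT) was -0.03 in RNA-seq, where that of all genes was 0.00 to 2 decimals, and -0.06 in footprints, where that of all genes was -0.01. In RNA-seq 33 of 62 lay below 0, with a range from -0.73 (Eif4ebp1) to 0.44 (Eif3j1), and in footprints 39 lay below 0, from -0.77 (Eif5a2) to 0.41 (Eif2ak4). With the block, the 95% intervals of 58 members in RNA-seq and 60 in footprints stayed within 1 log2 unit of no change, and those of 37 and 52 within 0.5. The libraries of the genotypes did not overlap for 18 members in RNA-seq (29%, against 30.9% of all genes) and for 23 in footprints (37.1%, against 38.1%). Of those 23, 19 were lower in KO, 30.6% of the members against 19.5% of all genes. The members' share of all reads in genes was 0.925% to 0.988% in WT-labelled RNA-seq and 0.831% to 0.886% in KO-labelled RNA-seq, and 1.08% to 1.12% against 1.03% to 1.07% in footprints. These shares are of totals without TMM scaling, and the most abundant members weigh most in them. The TMM factors were 1.0065 to 1.046 in WT-labelled and 0.94597 to 0.99384 in KO-labelled RNA-seq, so scaling narrows the RNA-seq gap.

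**Figure D1:**
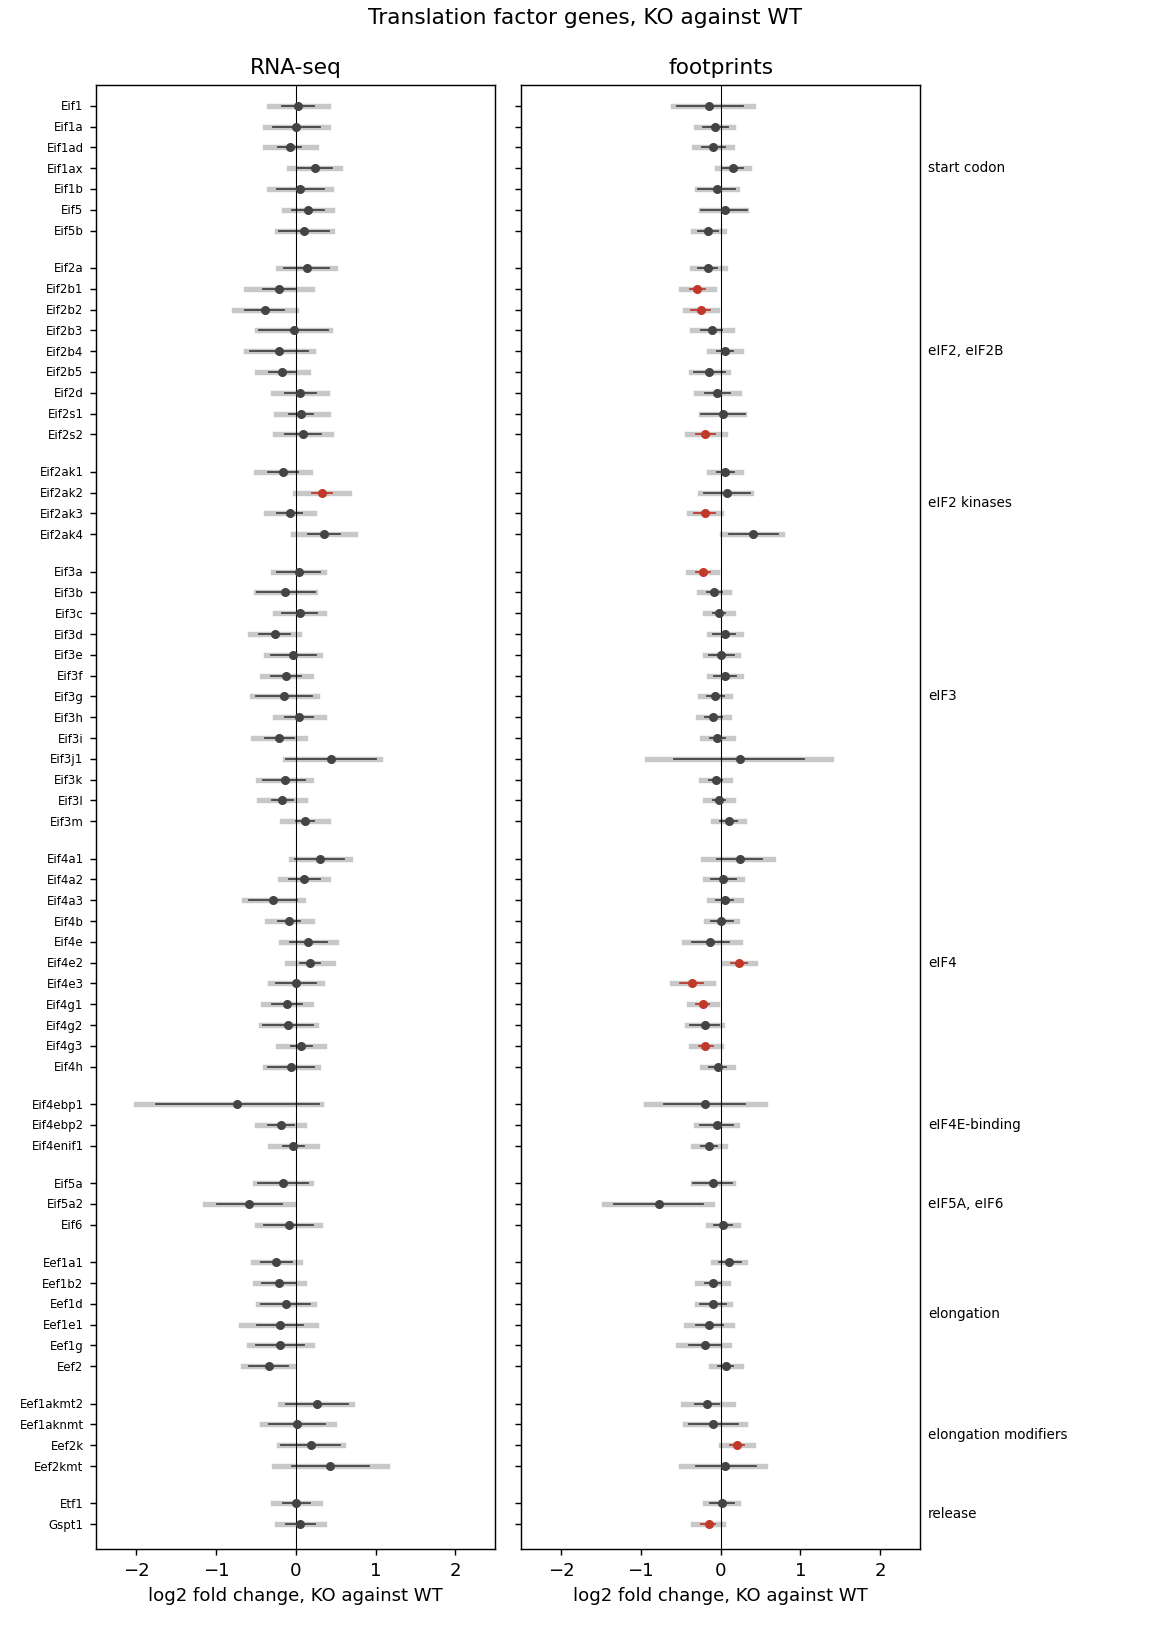
Log2 fold change of KO over WT for the 62 members, grouped by role, in RNA-seq (left) and footprints (right). Points are edgeR estimates, thin lines their 95% intervals without the replicate block, thick grey lines the 95% intervals with it, and red marks the members called without the block, 1 in RNA-seq and 11 in footprints.

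The genes grouped under the label start codon (Eif1, Eif1b, Eif1a, Eif1ax, Eif1ad, Eif5, Eif5b) gave no call in either assay. The label names the group and does not mean that each of its proteins recognises the start codon. In RNA-seq 6 of 7 lay above 0 (median log2 0.06) and in footprints 5 of 7 below 0 (median -0.07). The paralogs Eif1 and Eif1b, which encode near-identical factors that hold the scanning ribosome open, had footprint fold changes of -0.14 (SE 0.17, edgeR FDR 0.644) and -0.05 (SE 0.10, edgeR FDR 0.773) on the log2 scale.

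The next group held 9 genes, those of eIF2 and its exchange factor eIF2B, with Eif2a and Eif2d placed beside them by name. Of these, 3 were called lower in KO footprints without the block and none in RNA-seq. Of all genes tested in footprints, 8.34% were called lower. Eif2b1 (ENSMUSG00000029388.14) encodes the alpha subunit of eIF2B, which reloads eIF2 with GTP. Its footprints were 55.5, 56.7 and 57.6 CPM in WT and 47.1, 46 and 45.1 CPM in KO. Every KO library lay below every WT library, and the difference was -0.29 on the log2 scale (SE 0.04, edgeR FDR 0.00516, with the block 0.153). Eif2b2, the beta subunit of the same complex, had 89.3, 88.1 and 82.1 CPM in WT and 71.2, 72 and 77.2 in KO. This was -0.25 on the log2 scale (SE 0.05, edgeR FDR 0.0204, with the block 0.222). The call of Eif2b1 held with each library left out, while that of Eif2b2 held in 2 of 6 such fits and was lost without replicates 1 or 2 of either genotype (edgeR FDR 0.0598 to 0.0882). In RNA-seq the libraries labelled KO were also below those labelled WT for both genes, with log2 -0.21 for Eif2b1 (edgeR FDR 0.193) and -0.39 for Eif2b2 (edgeR FDR 0.0696), neither past the threshold. The other eIF2B subunits Eif2b3, Eif2b4 and Eif2b5 were not called in either assay. Eif2s2, which encodes the beta subunit of eIF2, had 43.4, 40.7 and 40.8 CPM in WT footprints and 35.1, 37.4 and 37.5 in KO (log2 -0.19, SE 0.05, edgeR FDR 0.0493, with the block 0.437), and its call was lost whichever footprint library was left out. For Eif2s1, the alpha subunit that stress kinases phosphorylate, the footprint difference was 0.03 on the log2 scale (SE 0.11, edgeR FDR 0.885).

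The 4 kinases of eIF2 alpha, each a sensor of another stress, did not move as a group. Eif2ak2 encodes PKR, the kinase activated by double-stranded RNA. It was the 1 member called in RNA-seq, with 29.3, 29.5 and 29.2 CPM in the libraries labelled WT and 36.7, 36.8 and 36.9 CPM in those labelled KO (log2 0.33, SE 0.06, edgeR FDR 0.024, with the block 0.548, DESeq2 adjusted p 0.292). The SD within each of these groups was under the counting error of its reads. With 185 to 213 reads per WT library that error is 2.06 CPM, and the SD was 0.119. The call was lost with each library left out (edgeR FDR 0.0794 to 0.108). Its footprints overlapped between the genotypes (log2 0.08, SE 0.12, edgeR FDR 0.706). Eif2ak4, the amino acid sensor GCN2, did not pass the test in either assay, but its libraries did not overlap in either. Its RNA was at 18.7, 20.6 and 21.1 CPM in WT-labelled and 27.6, 25.5 and 24.5 CPM in KO-labelled libraries (log2 0.36, SE 0.08, edgeR FDR 0.0559, with the block 0.563). In footprints it had 12.4, 15.2 and 15.9 CPM in WT and 21.8, 17.9 and 16.9 in KO (log2 0.41, SE 0.13, edgeR FDR 0.0787, with the block 0.279). Eif2ak3, the endoplasmic reticulum kinase PERK, had lower KO footprints without the block, at 112, 105 and 101 CPM in WT and 87.6, 93.3 and 96.5 in KO (log2 -0.20, SE 0.05, edgeR FDR 0.0471, with the block 0.317). That call too was lost with each library left out. Eif2ak1, the haem-regulated kinase, had -0.16 in RNA-seq (edgeR FDR 0.288) and 0.06 in footprints (edgeR FDR 0.371). This kinase is best known from erythroid cells, and the summed RNA of 5 erythroid markers was 75.7 to 90.5 CPM in WT-labelled and 46.5 to 58.2 CPM in KO-labelled libraries, although Hba-a1 alone did not follow (log2 0.09). Hbb-bs was the 1 of these markers called in RNA-seq, lower in KO (log2 -0.62, edgeR FDR 0.0155, with the block 0.137). In footprints the sum of the markers overlapped, at 40.6 to 75.4 CPM in WT and 34.6 to 73.7 in KO. There Alas2 was the 1 called, lower in KO (log2 -0.74, edgeR FDR 0.03, with the block 0.202), while Hbb-bs was at log2 0.03. Of all genes tested, 6.91% were called in RNA-seq and 17.6% in footprints. The part of erythroid cells in the kinase values was not tested.

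Of the 13 eIF3 subunit genes, 1 was called lower in KO footprints, against 8.34% of all genes, and none in RNA-seq. Eif3a encodes the largest scaffold subunit of the complex. It had 862, 845 and 887 CPM in WT footprints and 744, 758 and 719 in KO, with no overlap (log2 -0.22, SE 0.04, edgeR FDR 0.0117, with the block 0.218, DESeq2 adjusted p 0.00835). Its RNA did not differ in the same way, at 548, 476 and 585 CPM in WT and 539, 624 and 495 in KO (log2 0.04, SE 0.11, edgeR FDR 0.865), and the difference between the assays, -0.26 (SE 0.12), did not pass the interaction test (edgeR FDR 0.365). Setting aside Eif3j1, which had few footprint reads, the other 11 subunits beside Eif3a had footprint fold changes between -0.09 (Eif3h) and 0.10 (Eif3m) on the log2 scale. The Eif3a call was lost without KO replicate 1 (edgeR FDR 0.0514) and held with each other library left out.

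In the eIF4 group, 4 of 11 genes were called in footprints without the block, 1 higher and 3 lower, and none in RNA-seq. Of all genes tested in footprints, 9.25% were called higher and 8.34% lower. Over all 62 members the share called was 17.7%, against 17.6% of all genes. The cap-binding paralogs differed in direction. Eif4e3, which encodes a cap-binding protein related to eIF4E, had 40.4, 38 and 36.6 CPM in WT footprints and 28.4, 30.3 and 31.6 in KO. This was the lowest fold change among the called members, -0.36 on the log2 scale (SE 0.06, edgeR FDR 0.0111, with the block 0.15), and the call held with each library left out. Its RNA was 112, 91.6 and 98.1 CPM in the libraries labelled WT and 89.9, 111 and 102 in those labelled KO, which overlapped (log2 0.00, SE 0.11, edgeR FDR 0.995). Eif4e2, the paralog known as 4EHP that represses the mRNAs it binds, was higher in KO footprints, with 93.8, 88.7 and 88.2 CPM in WT against 102, 108 and 108 (log2 0.23, SE 0.04, edgeR FDR 0.0156, with the block 0.219). That call was lost without replicates 2 or 3 of either genotype (edgeR FDR 0.053 to 0.0764). Eif4e itself, the main cap-binding factor, differed by -0.13 in footprints on the log2 scale (SE 0.10, edgeR FDR 0.435) and by 0.16 in RNA-seq (SE 0.10, edgeR FDR 0.362).

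Both genes of the classical eIF4G scaffold were called lower in KO footprints. Eif4g1 had 662, 636 and 638 CPM in WT and 541, 563 and 559 in KO (log2 -0.22, SE 0.04, edgeR FDR 0.00978, with the block 0.22). Eif4g3 had 173, 166 and 168 CPM in WT and 145, 151 and 149 in KO (log2 -0.19, SE 0.04, edgeR FDR 0.0155, with the block 0.295). The Eif4g1 call was lost without KO replicate 1 (edgeR FDR 0.0525), and the Eif4g3 call without any 1 of the KO libraries or WT replicate 1 (edgeR FDR 0.0525 to 0.0816). Neither was called in RNA-seq, where the log2 fold changes were -0.11 and 0.07, and the interaction reached edgeR FDR 0.629 for Eif4g1 and 0.15 for Eif4g3. The helicase gene Eif4a1 overlapped between the genotypes in both assays, with log2 0.30 in RNA-seq (SE 0.13, edgeR FDR 0.219) and 0.24 in footprints (SE 0.12, edgeR FDR 0.216).

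**Figure D2:**
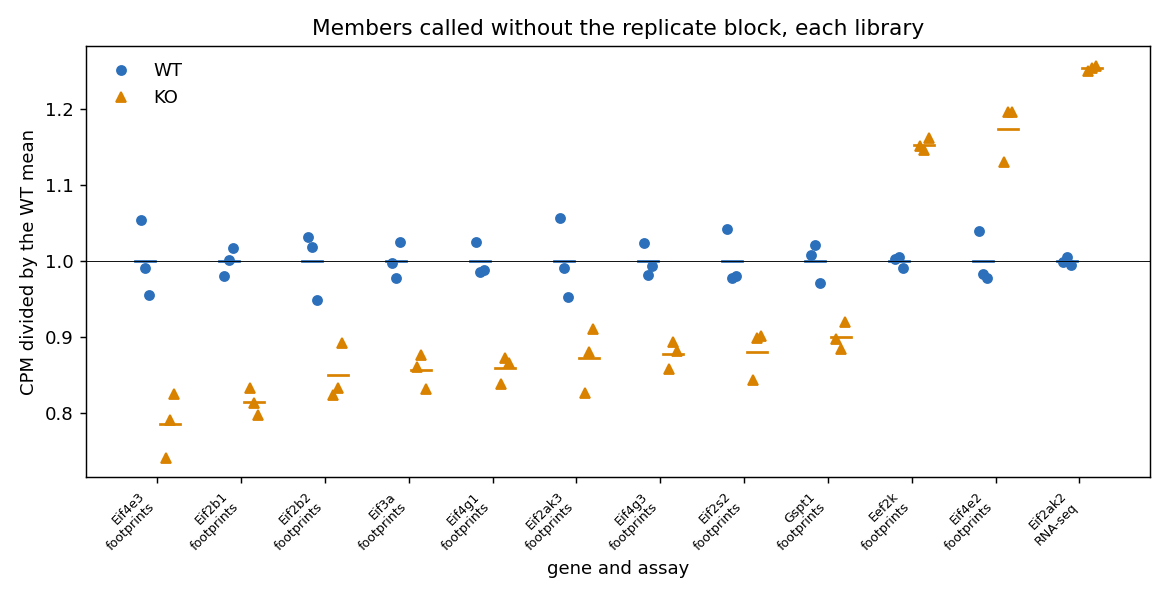
CPM of each library divided by the mean of the 3 WT libraries, for the 11 members called in footprints and Eif2ak2 called in RNA-seq, all without the replicate block. Points are libraries and short lines group means; for every gene shown the WT and KO libraries do not overlap.

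The translational repressors that bind eIF4E gave no call. Eif4ebp1 was among the lowest-counted members, with RNA at 1.74, 2.64 and 2.33 CPM in WT-labelled and 1.9, 0.236 and 1.49 CPM in KO-labelled libraries. Its log2 fold change of -0.73 had an SE of 0.43 (edgeR FDR 0.355), and KO replicate 2 was the lowest. Eif4ebp2 had 468, 481 and 519 CPM in RNA-seq labelled WT and 449, 439 and 400 labelled KO (log2 -0.19, SE 0.07, edgeR FDR 0.16), while its footprints overlapped (log2 -0.05, SE 0.09, edgeR FDR 0.755).

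Eif5a, whose protein carries the modified amino acid hypusine and helps ribosomes through slow peptide bonds, did not differ beyond the spread (footprint log2 -0.10, SE 0.10, edgeR FDR 0.562). Its paralog Eif5a2 was lower in every KO library of both assays without passing the test. In RNA-seq it had 12.8, 10.6 and 9.33 CPM labelled WT and 5.98, 7.55 and 8.21 labelled KO (log2 -0.58, SE 0.17, edgeR FDR 0.0997, with the block 0.48). In footprints it had 4, 5.58 and 5.67 CPM in WT and 3.8, 2.53 and 2.2 in KO (log2 -0.77, SE 0.23, edgeR FDR 0.0664, with the block 0.23).

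The elongation factor genes lay below 0 in RNA-seq for 6 of 6 members, with a median log2 of -0.21, and none was called by edgeR. Eef2 (ENSMUSG00000034994.10), which moves the ribosome along by one codon, had 1250, 1232 and 1444 CPM in the libraries labelled WT and 1080, 1106 and 911 in those labelled KO. The groups did not overlap, and the difference was -0.34 on the log2 scale (SE 0.10, edgeR FDR 0.0979, with the block 0.444), and DESeq2 gave an adjusted p of 0.0446. In the authors' deposited table Eef2 was the only member marked as significant in RNA, with a log2 fold change of -0.316 and an adjusted p of 0.0321, where 327 genes of 13301 listed were marked higher and 221 lower. For footprints the authors' deposited table marked 1 of the 61 members it lists as higher (Eif4e2) and 6 as lower (Eif2b1, Eif2b2, Eif3a, Eif4e3, Eif4g1, Eif4g3), beside 711 and 498 of 11369 genes. Eef1a1 (ENSMUSG00000037742.14), the carrier of aminoacyl-tRNA, had 670, 749 and 767 CPM labelled WT and 668, 597 and 579 labelled KO (log2 -0.25, SE 0.08, edgeR FDR 0.131, with the block 0.623).

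Footprints of these 2 genes did not follow their RNA. Eef2 had 1232, 1183 and 1167 CPM in WT footprints and 1215, 1265 and 1276 in KO, which overlapped (log2 0.07, SE 0.04, edgeR FDR 0.286). Eef1a1 had 229, 251 and 252 CPM in WT and 280, 256 and 254 in KO, every KO library higher (log2 0.11, SE 0.06, edgeR FDR 0.225). The difference between footprint and RNA changes was 0.41 for Eef2 (SE 0.11, edgeR FDR 0.155, with the block 0.997) and 0.36 for Eef1a1 (SE 0.11, edgeR FDR 0.17, with the block 0.997), so neither passed the interaction test. The other 4 genes, namely Eef1b2, Eef1d and Eef1g for the complex that reloads eEF1A with GTP and Eef1e1 for a partner of aminoacyl-tRNA synthetases, lay below 0 in footprints too. Over the 9 members of the TOP list, 8 lay below 0 in RNA-seq, 4 in footprints, and 8 of 9 had an interaction above 0. Outside that list 25 of 53 lay below 0 in RNA-seq, 35 in footprints, and 21 had an interaction above 0.

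**Figure D3:**
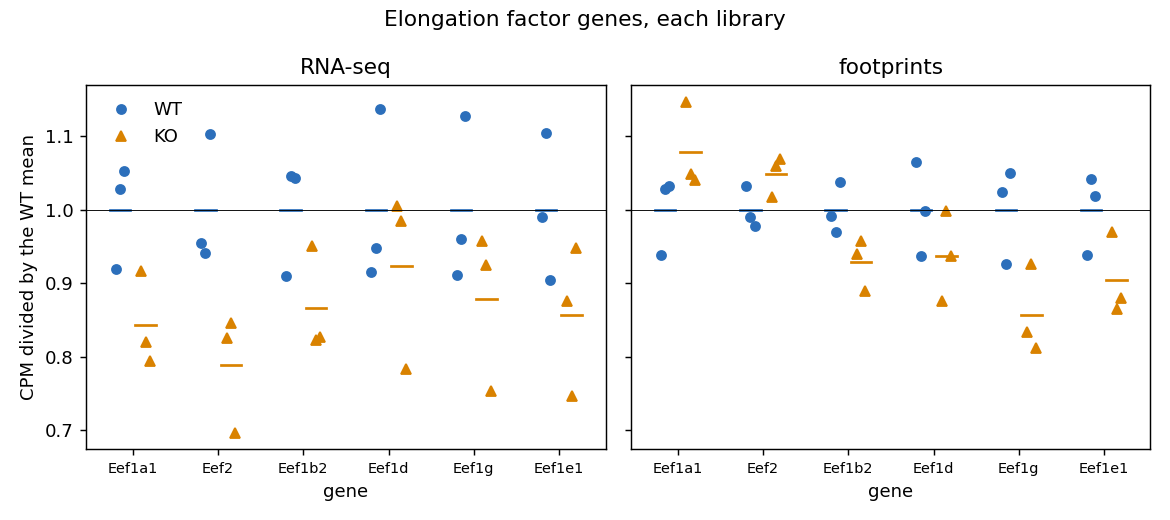
CPM of each library divided by the mean of the 3 WT libraries for the 6 elongation factor genes, in RNA-seq (left) and footprints (right). Points are libraries and short lines group means. The RNA of Eef1a1 and Eef2 was lower in every library labelled KO, while their footprints lay at or above the WT mean in every KO library.

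Eef2k encodes the kinase that inhibits eEF2, and its footprints were higher in KO without the block. They were 49.9, 50 and 49.3 CPM in WT and 57.3, 57 and 57.8 in KO (log2 0.21, SE 0.03, edgeR FDR 0.0102, with the block 0.309, DESeq2 adjusted p 0.18), and the call was lost without KO replicate 1 (edgeR FDR 0.0501) or 2 (edgeR FDR 0.0575). The SDs of 0.376 and 0.394 CPM were again under the counting error of 1.85 and 2.78. Over the 12 calls of both assays, 12 of the 24 group SDs were under the counting error of their reads. An SD of 3 libraries can fall under that error by sampling alone, and calls favour genes of small spread. The share over all genes was not computed, so this count does not show an unusual spread. In RNA-seq the kinase gene overlapped between the genotypes (log2 0.19, SE 0.15, edgeR FDR 0.513).

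Of the release factors, Gspt1, which encodes the GTPase eRF3, had 309, 313 and 298 CPM in WT footprints and 275, 271 and 282 in KO (log2 -0.15, SE 0.04, edgeR FDR 0.0314, with the block 0.411). The call was lost with each library left out. Etf1, which encodes the stop codon reader eRF1, gave 0.02 in footprints (SE 0.06, edgeR FDR 0.841) and 0.01 in RNA-seq (SE 0.07, edgeR FDR 0.948). The 95% intervals with the block for Etf1 ran from -0.19 to 0.22 in footprints and from -0.29 to 0.31 in RNA-seq.

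No member was called for translation, meaning footprints tested against RNA in 1 model, by edgeR with or without the block or by DESeq2. Of all 11854 genes tested 0.211% were called, 0.0169% with the block and 0.405% by DESeq2. Unadjusted p lay under 0.05 for 12 members, 2 with the block and 9 by DESeq2. The median interaction of the members was -0.04, that of all genes 0.01, and with the block the 95% intervals of 58 members stayed within 1 log2 unit.

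Within WT cells, the members differed far more among themselves in how many footprints they had for their RNA. The footprint to RNA ratio is the mean footprint CPM over the mean RNA CPM of a gene, as log2, minus the median of the 11854 genes. Members had a median of 0.55, with 45 of 62 above the median of all genes, and their quartiles lay at -0.25 and 1.34 against -0.89 and 0.89 for all genes. In KO the members' median was 0.46. Reads were counted over whole genes, so long untranslated regions lower the ratio, and multiply aligned reads went into a row of their own, which weighs on genes with processed copies.

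Among the 58 members whose average log2 CPM reached 3 in both assays, the highest ratios belonged to Eif3g (2.54), Eif5a (2.20) and Eif4a3 (2.15). The lowest were those of Eif4ebp2 (-3.0), Eif4a1 (-2.39) and Eif1 (-1.41). For Eif4ebp2 this means 468, 481 and 519 CPM in WT RNA-seq against 49.8, 51.3 and 58.7 in footprints. For Eif3g it means 30.2, 31 and 38.4 CPM against 169, 162 and 174. Over the pairings of WT libraries, the ratio of Eif4ebp2 ran from -3.18 to -2.80 and that of Eif3g from 2.27 to 2.72.

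**Figure D4:**
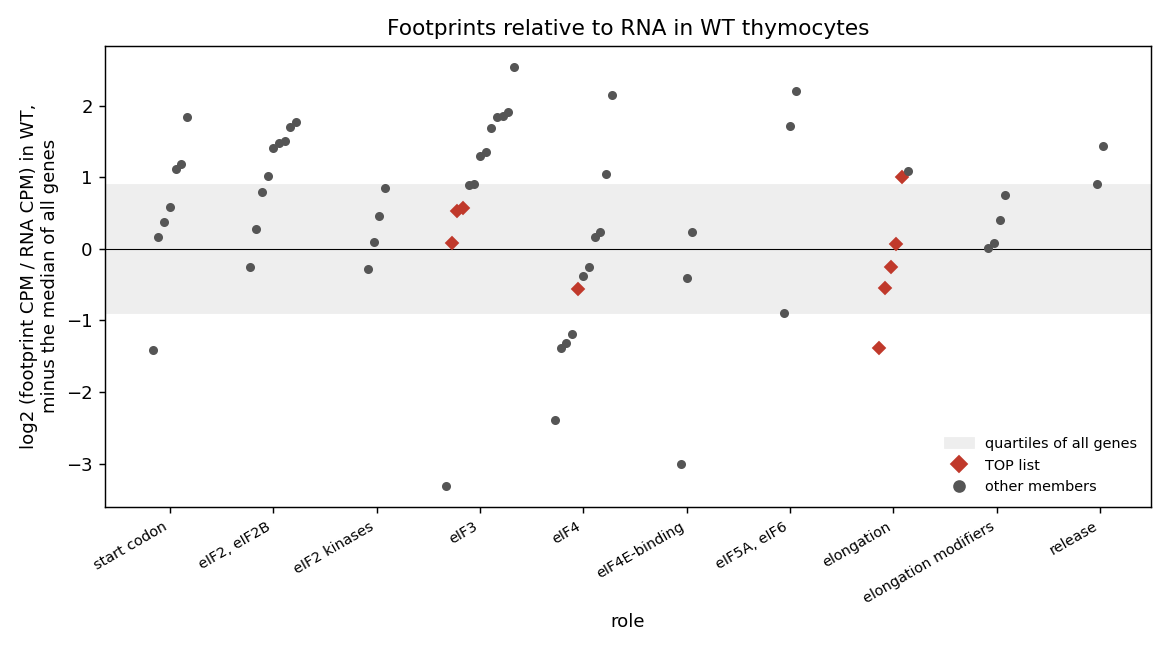
Footprint to RNA ratio in WT, as log2 minus the median of 11854 genes, for the 62 members by role. Each point is a gene, red diamonds are the TOP list and the grey band spans the quartiles of all genes, -0.89 to 0.89; the TOP genes have a median of 0.07 and the others of 0.79.

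Some paralogs lay far apart and others close together. Eif1 had a ratio of -1.41 and Eif1b of 1.84, Eif5a 2.20 and Eif5a2 -0.90, Eif4g1 1.04 and Eif4g3 -0.25, and Eif4ebp1 0.23 and Eif4ebp2 -3.0. The helicase pair had -2.39 for Eif4a1 and -1.38 for Eif4a2. Nearer to each other were Eif1a with 0.59 and Eif1ax with 1.12, and the cap-binding genes Eif4e with -1.32 and Eif4e3 with -1.19, whereas the third cap-binding gene, Eif4e2, had 0.16. Counted rows named as pseudogene copies exist for Eif1, Eif4a1, Eif4a2 and Eif3e. For Eef1a1 and Eef2 such copies are named in RefSeq but have no counted row under that name, which makes 6 members in all. The row Eif5al3-ps, with 7 RNA-seq and 73 footprint reads, was matched to no member, so Eif5a is not among them. SnoRNA genes overlap 9 members, among them Eif4a1, Eif4a2 and Eef2. Without the 6 members with named copies the median ratio was 0.77, an alternative chosen after seeing the data.

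The 9 members of the TOP list had a median ratio of 0.07 in WT, and the other 53 one of 0.79, a difference of -0.72. In KO the medians were 0.22 and 0.70. Low ratios were not particular to the list. By role, the WT median was -0.38 for eIF4, which has Eif4b on the list, -0.41 for the eIF4E-binding genes and -0.10 for elongation. The medians of all other roles lay above that of the list. All elongation factor genes but Eef1e1 are on the list, so list and role cannot be told apart there. Eef1a1 was the lowest of the list at -1.38, followed by Eif4b at -0.56 and Eef1g at -0.55, and Eef1d the highest at 1.00. Eef2 stood in the middle of the list with 0.07 in WT and had 0.44 in KO, the difference whose interaction test is given above.

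The eIF3 complex held both kinds of mRNA. Of 12 subunit genes, leaving out Eif3j1 for its few footprint reads (a choice made after its values were seen), the 3 on the TOP list had the 3 lowest ratios in WT: Eif3f with 0.08, Eif3h with 0.53 and Eif3e with 0.57. The next were Eif3a with 0.89 and Eif3m with 0.91, and the range ended with Eif3c at 1.91 and Eif3g at 2.54. The neighbours Eif3e and Eif3a were not separated by the spread between libraries, with pairings from 0.35 to 0.85 and from 0.73 to 1.10. Eif3f (-0.06 to 0.25) lay below every pairing of the 9 subunits outside the list. In KO the 3 TOP subunits were again lowest, but Eif3e at 0.58 and Eif3a at 0.59 hardly differed. Medians were 0.53 and 1.68 in WT and 0.36 and 1.80 in KO. Of the windows printed above, that of Eif3f has the C and pyrimidines at its start, and those of Eif3c, Eif3d and Eif3g have no run, while Eif3l has runs and a ratio of 1.68.

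**Figure D5:**
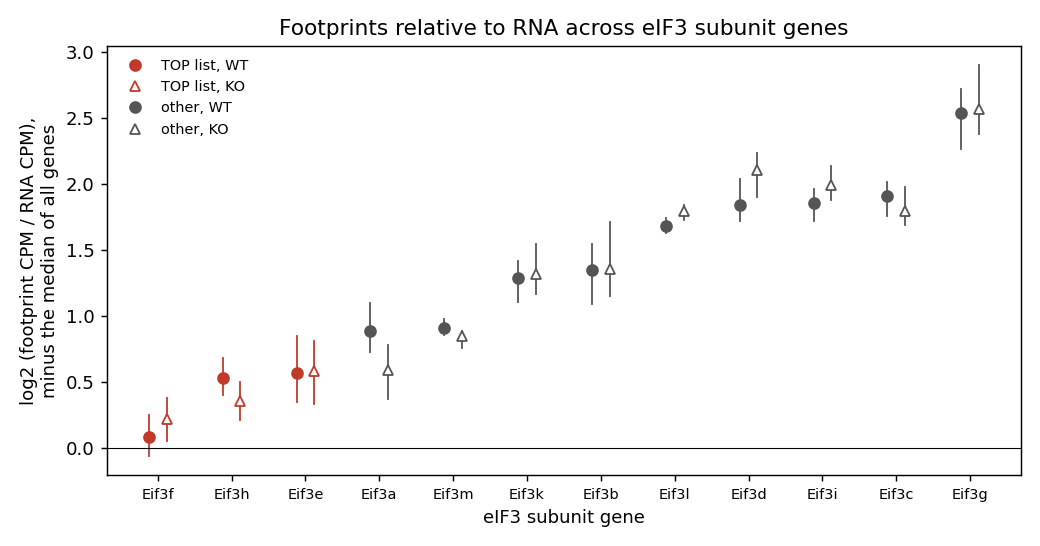
Footprint to RNA ratio of 12 eIF3 subunit genes in order of their WT value, as log2 minus the median of all genes, with WT as filled circles and KO as open triangles. Lines span the lowest and highest of the pairings of the 3 RNA-seq and 3 footprint libraries, and the 3 TOP subunits (red) stand at the left, from 0.08 to 0.57 in WT.

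Regulators around these factors were read from a list of 33 other genes of the pathway, 32 of them tested. None was called in RNA-seq, and in footprints 1 was called higher (Larp4, log2 0.20, edgeR FDR 0.0181) and 3 lower (Rptor, Larp1, Paip1). Of all genes tested, 6.91% were called in RNA-seq, and 9.25% were called higher and 8.34% lower in footprints. Rptor encodes Raptor, the scaffold of mTORC1 that recruits its substrates, the eIF4E-binding proteins among them. It had 94, 94.1 and 101 CPM in WT footprints and 73, 72.7 and 67.6 in KO (log2 -0.43, SE 0.05, edgeR FDR 0.00323). Of the 32 genes tested, Rptor was the 1 called with the block (edgeR FDR 0.0378), against 3.02% of all genes. Its RNA overlapped at the edges, with 144, 156 and 178 CPM labelled WT and 148, 138 and 116 labelled KO (log2 -0.25, SE 0.12, edgeR FDR 0.25), and the interaction of -0.18 was not called (edgeR FDR 0.596). Larp1, which binds TOP mRNAs, differed by -0.22 in footprints on the log2 scale (SE 0.05, edgeR FDR 0.0238, with the block 0.254), and Paip1, a partner of the poly(A)-binding protein, one of -0.15 (edgeR FDR 0.0494, with the block 0.436). Tpt1, a TOP mRNA that is no translation factor, did not pass the test in footprints (log2 0.65, SE 0.20, edgeR FDR 0.0741).

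Markers of other cells were summed beside these results. The summed level of thymic epithelial markers (Epcam, Krt5, Krt8, Psmb11 and Foxn1) was lower in KO in both assays, at 18.8 to 22.1 CPM in WT and 14.2 to 17.3 in KO by RNA-seq, and 75.3 to 82.1 against 59.7 to 70.3 in footprints. The genes differed: Krt5 was called lower in RNA-seq (log2 -1.07, edgeR FDR 0.0228, with the block 0.248), where Foxn1 was not tested and Psmb11 was at log2 0.05, and Epcam was called lower in footprints (log2 -0.50, edgeR FDR 0.0339, with the block 0.104). The other 4 overlapped between the genotypes in footprints. The summed level of endothelial markers (Pecam1, Kdr and Cdh5) was 168 to 175 CPM in WT-labelled and 202 to 212 in KO-labelled RNA-seq. Pecam1, which some T cells also express, gave 166 to 173 and 200 to 208 CPM of that. Kdr was not called in RNA-seq (log2 0.44, edgeR FDR 0.473), and Cdh5 was not tested there. In footprints the genes differed, with log2 0.13 for Pecam1 (edgeR FDR 0.0423, with the block 0.497). Kdr was at 0.02 (edgeR FDR 0.984) and Cdh5 at -0.50 (edgeR FDR 0.31). Fibroblast markers were at 31 to 32.7 CPM in WT-labelled and 26.9 to 28.6 in KO-labelled RNA-seq and overlapped in footprints (76.6 to 107 against 90.9 to 130). Myeloid markers overlapped in both assays, and B cell markers were at 42.9 to 56.2 CPM in WT footprints and 55.9 to 73.6 in KO, where Cd79b was called higher also with the block (edgeR FDR 0.0466). Cycling cell markers, which matter for genes of growth and translation, overlapped: 1916 to 2211 CPM in WT and 2032 to 2358 in KO by RNA-seq, and 4709 to 5624 against 4264 to 5122 in footprints. The part of these differences in the members' values was not tested, and in bulk cells fewer cells of a type and less RNA per cell cannot be told apart.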

How the data were processed

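Thymocytes of 2 genotypes were measured by RNA-seq and ribosome footprinting, 3 libraries each. The deposited tables hold whole-number read counts per gene, which the authors named as adjusted; what was adjusted, like the build, annotation and strand setting behind them, is not given in the sources used here, though the submitters' processing notes name FastQC, Bowtie2 2.5.1, STAR 2.7.10a, HTSeq 2.0.3 and DESeq2 1.40.2. The authors also deposited comparison tables of log2 fold changes and p-values, of which 12 columns of per-library values were not used.

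Each assay was fitted over all genes with edgeR 4.0.16 in R 4.3.3: TMM scaling, filterByExpr with a minimum count of 10, the quasi-likelihood test for genotype and Benjamini-Hochberg adjustment, with calls at FDR under 0.05. Translation was the genotype by assay interaction over all libraries. SEs and 95% intervals were derived from each test's p-value and degrees of freedom. The fits were tested on simulated data. Alternatives were DESeq2 1.42.0, RLE factors, no filter, a joint fit, the replicate block, another FDR and the omission of each library. Nothing in the labels says that same-numbered libraries share a mouse or batch, and p-values measure the spread between libraries; replicate libraries differed by more than sampling noise (chi-square per degree of freedom 3.41 to 12.9).

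Members and lists were chosen with earlier results of these data known. Named with values were members called in any comparison, 16 core factors whatever their test, the 3 highest and 3 lowest footprint to RNA ratios, paralog pairs, and pathway genes called with the block; Eif3a to Eif3m, Eef1b2, Eef1d, Eef1g, Eef1e1, Eif4b, Larp1, Larp4, Paip1 and Tpt1 were named beyond that rule.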

Additional observations from a re-analysis of the deposited data

How the results depend on the processing

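The members called in RNA-seq, 1 as reported, numbered 5 in the joint fit of 12 libraries (1 higher, 4 lower), 0 with no filter on low counts, 0 with the replicate block, 6 at FDR under 0.1, and 0 with any library left out. The 11 called in footprints became 4 by DESeq2, 0 with the replicate block, 17 at FDR under 0.1 and 3 to 7 when single libraries were left out, fewest without KO replicate 1. The block pairs libraries by a number that no label ties to a mouse or batch, and same-numbered libraries of the 2 genotypes deviated in opposite directions (r over members -0.93 to -0.81 in RNA-seq, -1.0 to -0.99 in footprints), so a call lost with it is not read as a weaker effect. No member was called for translation in any fit. Of 12 member calls, all kept their direction, and 10 kept the call with RLE, 7 without the filter, 6 in the joint fit, 4 with DESeq2 and 0 with the block. Eif2b1 and Eif4e3 kept theirs in all 6 fits that left out a library. The members' ratio of 0.55 was 0.46 in KO, 0.39 when members and the reference median were limited to genes whose average log2 CPM reached 3, 0.77 without members with named copies and 0.51 to 0.58 with a library left out. The TOP difference of -0.72 was -0.48 in KO, -0.96 without named copies, -0.82 at that level and -0.80 to -0.68 with a library left out, all tried after seeing the data, as was the 0.77. The cause of these shifts was not tested. Footprint density per coding length over eIF3 was not run. Low counts limit Eif3j1, Eif4ebp1 and Eif5a2.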

Other observations

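Genes of the same families that the authors' deposited tables do not list had few reads. Eif3j2, the second mouse gene for the eIF3 j subunit, had 5 to 10 reads in each RNA-seq library and 9 to 45 in each footprint library. Eef1akmt4, a methyltransferase gene, had 1 to 13 and 11 to 52. Eef1a2, the eEF1A paralog known from muscle and neurons, had 0 reads in the 6 RNA-seq libraries and 0, 1 and 1 in WT footprints against 5, 5 and 2 in KO. Eif4e1b had 0 reads in all 12 libraries.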
